A study of Mus musculus with 18 samples.

Results

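The 10 genes described here encode the NF-kB transcription factor subunits (Nfkb1, Nfkb2, Rel, Rela and Relb) and proteins that restrain or modify them (Nfkbia, Nfkbib, Nfkbie, Nfkbiz and Tnfaip3). They were chosen by gene symbol from the 43280 genes of the count files, and all 10 were present and passed the filter on low counts that 13922 genes passed. Bulk RNA-seq of mouse T cells gave 18 libraries in 4 groups. The iRTE (n = 5) and Artificial CD8 (n = 5) groups were CD8+ T cells differentiated from Pmel iPSC, induced pluripotent stem cells, and the CD4+CD8+ group (n = 3) held their double-positive precursors from the same source. The splenic CD8 group (n = 5) was naive CD8+ T cells taken ex vivo from the spleen of transgenic mice, and the descriptions of these libraries also carry the name pmel. Artificial CD8 and CD4+CD8+ cells were made on OP9-DL1, a stromal line that displays a Notch ligand. The remaining culture named in the study design, a 3D thymic culture giving CD8+ T cells, falls to iRTE by elimination, although the growth label of every library, splenic ones included, names OP9-DL1. Sorting used CD45, CD8, CD4 and TCR, with a gate that removed NK1.1, TCRgd and CD11c positive cells, and no treatment is given. Age and strain are absent from the labels, which also do not state whether replicates came from different cultures or mice. The p-values below therefore reflect library-to-library spread, part of which may be technical.

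NF-kB proteins work as dimers that are kept in the cytoplasm by IkB inhibitors until the IkB kinase complex marks those inhibitors for destruction. In the canonical route this frees dimers of RelA, c-Rel and p50, and in the non-canonical route the kinase NIK, encoded by Map3k14, leads to processing of the Nfkb2 product and release of RelB with p52. Several inhibitors, Nfkbia and Tnfaip3 among them, are themselves NF-kB targets and so close a feedback loop. In the mouse thymus, tonic signals through NF-kB accompany the late maturation of single-positive thymocytes.

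The libraries held 11132768 to 19305751 counts assigned to genes. Summed T-cell identity markers reached 8111 to 9362 CPM (counts scaled to library size, with TMM factors) in iRTE, 5428 to 6028 CPM in Artificial CD8, 7544 to 8258 CPM in splenic CD8 and 6591 to 8619 CPM in CD4+CD8+. The sum leans on abundant genes such as Cd8b1 and Lck. Cd5 was lowest in iRTE, with a mean of 8.34 CPM, against 56.3 CPM in Artificial CD8, 98.9 CPM in splenic CD8 and 66.7 CPM in CD4+CD8+. In iRTE against splenic CD8, 3 of these 8 markers were called higher and 2 lower (Cd5 and Cd247). Of all genes, 29.2% were called higher and 29% lower in that comparison. The 6 markers of double-positive thymocytes summed to 3.35 to 15.5 CPM in iRTE, 343 to 388 CPM in Artificial CD8, 38.4 to 42.1 CPM in splenic CD8 and 970.1 to 1264 CPM in CD4+CD8+ libraries. The splenic CD8 sum was nearly all Dntt, with a mean of 39.4 CPM against 5.79 CPM in iRTE. Rag1 and Ptcra were at 0 in splenic CD8 and averaged 0.632 and 0.832 CPM in iRTE, with medians of 0. In iRTE against splenic CD8, 3 of the 6 markers were called higher and 2 lower. The 8 B-cell markers summed to at most 8.0 CPM in iRTE, 23.4 CPM in Artificial CD8, 50.0 CPM in splenic CD8 and 10.3 CPM in CD4+CD8+. Of these markers, 5 were at 0 in every iRTE library, 3 in every Artificial CD8 library, 4 in every CD4+CD8+ library and 0 in splenic CD8. The 9 myeloid markers summed to at most 19.7 CPM in any library. The 9 stromal markers were highest in CD4+CD8+ (1.82 to 68.8 CPM), then in Artificial CD8 (18.1 to 27.3 CPM), and reached at most 4.60 CPM in iRTE and 3.74 CPM in splenic CD8. The NK and gamma-delta list summed to 1147 to 2063 CPM in iRTE, 1892 to 2226 CPM in Artificial CD8, 54.6 to 60.9 CPM in splenic CD8 and 1433 to 1599 CPM in CD4+CD8+, nearly all of it Tcrg-C1 and Tcrg-C2. The part of these cells in the NF-kB values was not tested, and in bulk samples fewer cells of a type and less RNA per cell cannot be told apart.

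Per kilobase of exon, Nfkbia and Rela were the leading members of the family and Rel the lowest by group mean. Nfkbia averaged 138 ± 125 CPM per kb in iRTE (SD, n = 5), 40.7 ± 2.44 in Artificial CD8 (n = 5), 236 ± 21.3 in splenic CD8 (n = 5) and 56.2 ± 1.98 in CD4+CD8+ (n = 3). The iRTE mean of Nfkbia holds iRTE 5 at 358 CPM per kb, and without that library, a setting chosen after seeing the data, it was 83.5 ± 27.9 (n = 4). Rela, the p65 subunit of the canonical dimer, averaged 69.1 ± 13.0 CPM per kb in iRTE, 47.3 ± 2.80 in Artificial CD8, 52.8 ± 2.11 in splenic CD8 and 51.7 ± 11.9 in CD4+CD8+. Rel stayed between 0.671 CPM per kb, the mean of CD4+CD8+, and 3.27 CPM per kb, the mean of splenic CD8. Rela stood above Nfkbia in Artificial CD8, and the order of the means was the other way round in the remaining groups. Single libraries departed from this order: Rela stood above Nfkbia in iRTE 4, at 78.1 and 48.9 CPM per kb, and in CD4+CD8+ 1, at 65.1 and 58.3 CPM per kb. In the non-canonical pair, Nfkb2 and Relb averaged 18.9 and 14.3 CPM per kb in iRTE, 4.99 and 3.87 in Artificial CD8, 23.1 and 18.6 in splenic CD8, and 8.15 and 3.88 in CD4+CD8+. These levels rest on GRCm38 exon lengths, while reads were counted on mm9, so they order the genes only roughly.

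**Figure D1:**
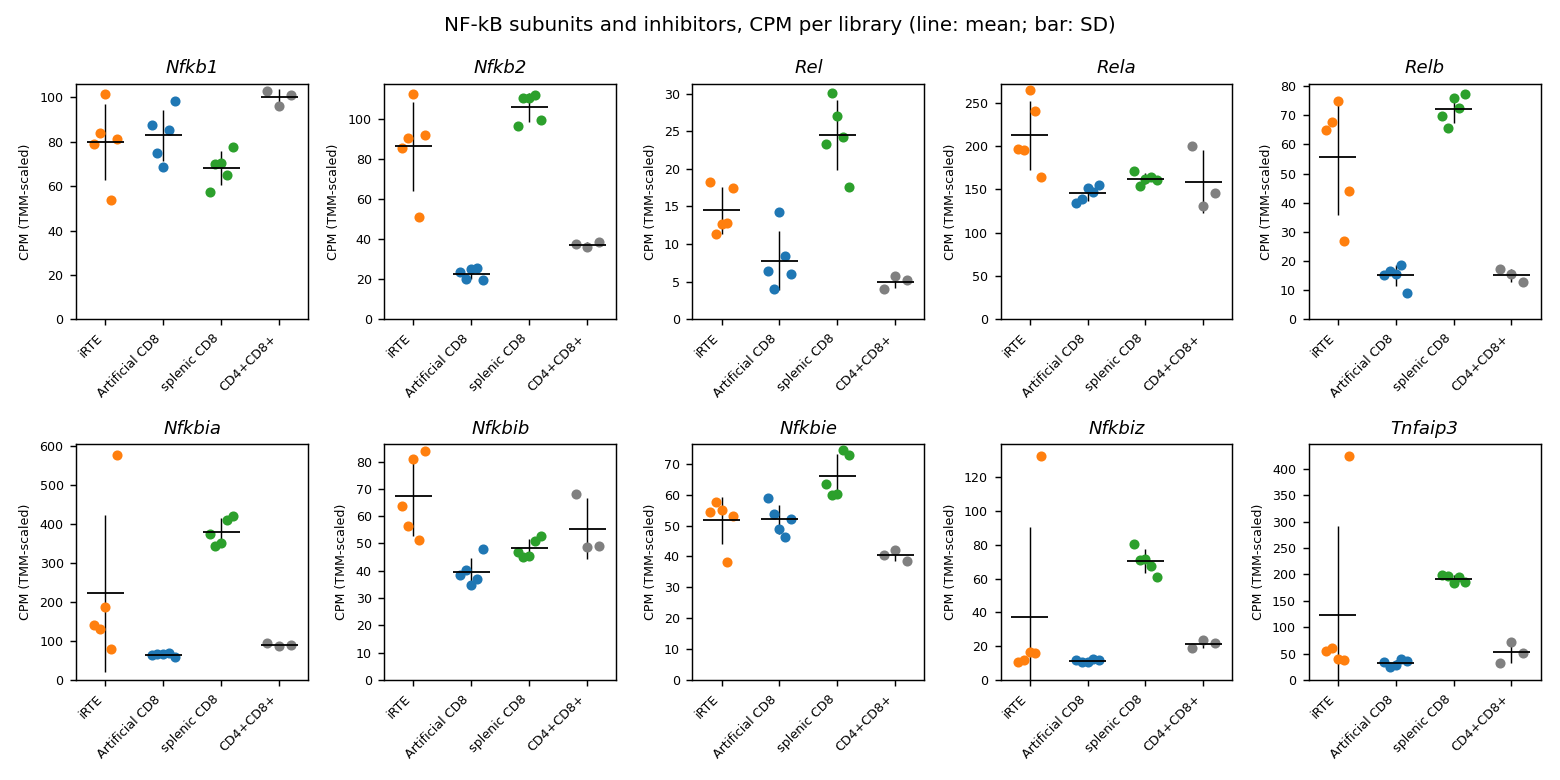
TMM-scaled CPM (linear axes from 0) of the 10 genes in each library, by group, with the group mean (line) and SD (bar). Nfkb2 and Relb were high in iRTE and splenic CD8 and low in Artificial CD8 and CD4+CD8+, while Nfkbia, Nfkbiz and Tnfaip3 were high in splenic CD8 and in 1 iRTE library, with 577, 133 and 425 CPM.

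Promoter sequences are shown for Nfkb2, Rel, Nfkbia and Tnfaip3, which differed between groups by over 2-fold, and beside them for Rela, which did not. RefSeq windows of 250 bases before to 50 after a start site on GRCm38.p6 were listed for 7 of the 10 genes, with several start sites for Nfkb2 and Tnfaip3. Capitals mark matches to the kappaB consensus, searched on both strands, with overlapping matches run together.
Nfkb2 promoter, chr19:46304487-46304786, plus strand: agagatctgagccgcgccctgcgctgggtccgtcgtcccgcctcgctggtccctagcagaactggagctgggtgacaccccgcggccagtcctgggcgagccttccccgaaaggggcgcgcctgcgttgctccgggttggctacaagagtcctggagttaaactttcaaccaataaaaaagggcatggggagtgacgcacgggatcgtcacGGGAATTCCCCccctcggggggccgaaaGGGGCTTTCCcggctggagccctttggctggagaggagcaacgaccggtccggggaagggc
Rel promoter, chr11:23770920-23771219, minus strand: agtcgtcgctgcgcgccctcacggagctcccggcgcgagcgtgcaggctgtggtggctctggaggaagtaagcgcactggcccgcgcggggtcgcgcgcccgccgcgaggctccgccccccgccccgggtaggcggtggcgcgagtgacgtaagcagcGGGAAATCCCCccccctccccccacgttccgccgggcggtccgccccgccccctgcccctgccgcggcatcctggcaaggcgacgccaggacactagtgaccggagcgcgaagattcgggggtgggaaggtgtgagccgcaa
Rela promoter, chr19:5637291-5637590, plus strand: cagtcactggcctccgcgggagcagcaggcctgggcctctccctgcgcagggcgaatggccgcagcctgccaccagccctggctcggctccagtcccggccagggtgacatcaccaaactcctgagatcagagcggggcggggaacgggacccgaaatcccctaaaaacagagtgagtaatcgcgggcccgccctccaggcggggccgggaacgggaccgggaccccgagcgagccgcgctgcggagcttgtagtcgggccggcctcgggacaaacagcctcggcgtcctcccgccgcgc
Nfkbia promoter, chr12:55492598-55492897, minus strand: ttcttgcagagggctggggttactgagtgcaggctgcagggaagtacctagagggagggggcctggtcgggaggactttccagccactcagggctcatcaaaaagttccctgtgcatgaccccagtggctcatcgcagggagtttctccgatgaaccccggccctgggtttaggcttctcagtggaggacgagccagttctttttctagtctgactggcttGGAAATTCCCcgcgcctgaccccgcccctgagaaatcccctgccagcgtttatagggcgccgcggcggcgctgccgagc
Tnfaip3 promoter, chr10:19015361-19015660, minus strand: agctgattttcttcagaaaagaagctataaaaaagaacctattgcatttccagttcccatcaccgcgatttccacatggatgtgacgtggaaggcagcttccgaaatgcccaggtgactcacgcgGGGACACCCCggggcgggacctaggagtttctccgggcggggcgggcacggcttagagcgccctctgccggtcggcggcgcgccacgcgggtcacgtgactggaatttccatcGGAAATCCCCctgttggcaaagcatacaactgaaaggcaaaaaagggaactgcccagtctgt
The Nfkbia window held 1 match, starting 29 bases before the start site. The window of Nfkb2 printed here held matches from 39 and from 11 bases before the start site, and its remaining windows also held matches. Rel, whose matches overlapped, had them from 92 bases before the start site, and Tnfaip3 had matches from 125 and from 12 bases before it. Nfkbie held a match from 106 bases before its start site, while Rela, Nfkbib and the second window of Tnfaip3 held none. Across all 32851 windows of 300 bases, 8.46% held a match. A match is a description of the letters in the window and no measure of binding.

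Nfkb2 and Relb, the subunits of the non-canonical dimer, separated iRTE and splenic CD8 from Artificial CD8 and CD4+CD8+. Nfkb2, whose product is processed to p52, had 85.9, 90.8, 113, 51.0 and 92.0 CPM in iRTE 1 to 5, against 23.9, 20.1, 25.3, 25.4 and 19.5 CPM in Artificial CD8 1 to 5. The splenic CD8 libraries held 96.8, 111, 110.5, 112 and 99.7 CPM of Nfkb2 and the CD4+CD8+ libraries 37.6, 36.0 and 38.5 CPM. Every iRTE and splenic CD8 library lay above every Artificial CD8 and CD4+CD8+ library, Artificial CD8 lay below CD4+CD8+, and iRTE overlapped splenic CD8 through iRTE 3 alone. Nfkb2 was higher in iRTE than in Artificial CD8 by 1.92 on the log2 scale (SE 0.207, edgeR adjusted p = 3.25e-08) and than in CD4+CD8+ by 1.21 (SE 0.192, edgeR adjusted p = 9.16e-05). It was lower in Artificial CD8 than in splenic CD8, with a log2 fold change of -2.21 (SE 0.0933, edgeR adjusted p = 9.35e-10), and lower than in CD4+CD8+, with -0.71 (SE 0.0868, edgeR adjusted p = 0.0101). Between iRTE and splenic CD8 the log2 fold change of -0.29 (SE 0.195) did not pass (edgeR adjusted p = 0.101), though it did at -0.41 without iRTE 3 and at -0.56 with iRTE 4 and 5 only, against -0.13, which did not pass, with iRTE 1 to 3 only. In GENCODE M21, 11.6% of the Nfkb2 exon bases overlap AC114539.1 and 6.52% overlap Psd, both on the opposite strand. Whether counting used strand is not given in the sources used here, so part of these reads may belong to those genes.

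Relb, the partner of p52, was also high in iRTE and splenic CD8, while Artificial CD8 and CD4+CD8+ overlapped. It had 65.1, 67.7, 74.9, 26.7 and 43.9 CPM in iRTE 1 to 5, against 15.1, 16.7, 15.6, 18.7 and 9.13 CPM in Artificial CD8. In splenic CD8 it had 69.7, 65.7, 75.9, 72.5 and 77.5 CPM, and in CD4+CD8+ 17.1, 15.4 and 12.7 CPM. iRTE 4 and 5 lay below the other iRTE libraries and below all splenic CD8 libraries, as did iRTE 1 by a narrow margin (65.1 against 65.7 CPM). Every iRTE library lay above every Artificial CD8 and CD4+CD8+ library. Relb was higher in iRTE by a log2 fold change of 1.88 against Artificial CD8 (SE 0.326, edgeR adjusted p = 3.54e-06) and by 1.88 against CD4+CD8+ (SE 0.301, edgeR adjusted p = 7.72e-05). The difference of iRTE from splenic CD8, -0.38 (SE 0.277), did not pass (edgeR adjusted p = 0.149); it was -0.06 with iRTE 1 to 3 only and -1.03, which passed, with iRTE 4 and 5 only. Artificial CD8 differed from splenic CD8, with a log2 fold change of -2.26 (SE 0.182, edgeR adjusted p = 1.14e-07), while its log2 fold change against CD4+CD8+ was 0.00 (SE 0.216, edgeR adjusted p = 0.998). With iRTE 1 to 3 and iRTE 4 and 5 taken apart, since their descriptions name them in different styles, the Nfkb2 fold change against Artificial CD8 was 2.08 and 1.64 and that of Relb 2.20 and 1.22, all 4 past the threshold.

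The subunits of the canonical route differed less between groups, apart from Rel. Rel encodes c-Rel, which is prominent in lymphocytes, and had 18.2, 11.3, 12.7, 12.8 and 17.4 CPM in iRTE against 6.37, 4.07, 14.2, 8.38 and 6.03 CPM in Artificial CD8. Splenic CD8 libraries had 23.3, 30.0, 27.1, 24.2 and 17.6 CPM of Rel and CD4+CD8+ libraries 4.07, 5.70 and 5.26 CPM. Splenic CD8 was the highest group and overlapped iRTE only through iRTE 1, Artificial CD8 3 reached into the iRTE range, and no CD4+CD8+ library did. Rel was higher in iRTE than in Artificial CD8 by 0.89 (SE 0.323, edgeR adjusted p = 0.0128) and than in CD4+CD8+ by 1.53 (SE 0.197, edgeR adjusted p = 0.00226). Against splenic CD8 it was lower in iRTE, with a log2 fold change of -0.76 (SE 0.187, edgeR adjusted p = 0.0197), a call lost at -0.65 without splenic CD8 2, and lower in Artificial CD8, with a log2 fold change of -1.64 (SE 0.320, edgeR adjusted p = 3.53e-05).

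Rela had 196, 196, 265, 240.0 and 164 CPM in iRTE, against 135, 138, 152, 147 and 155 CPM in Artificial CD8. Splenic CD8 held 171, 153, 162, 164 and 161 CPM and CD4+CD8+ 199.9, 130.5 and 146 CPM of Rela. Each iRTE library exceeded each Artificial CD8 library, and iRTE 5 lay within the splenic range. Rela was higher in iRTE by 0.55 against Artificial CD8 (SE 0.127, edgeR adjusted p = 0.00184), by 0.39 against splenic CD8 (SE 0.124, edgeR adjusted p = 0.0123) and by 0.42 against CD4+CD8+ (SE 0.220, edgeR adjusted p = 0.0425). The last call was lost without CD4+CD8+ 2 (0.29), CD4+CD8+ 3 (0.36), iRTE 3 (0.33) or iRTE 4 (0.37). Artificial CD8 and splenic CD8 did not differ past the threshold from CD4+CD8+ in Rela, with log2 fold changes of -0.13 (SE 0.188) and 0.03 (SE 0.186).

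Nfkb1, whose product is processed to p50, had 79.1, 84.0, 102, 54.0 and 81.4 CPM in iRTE, 87.7, 75.0, 68.6, 85.5 and 98.3 CPM in Artificial CD8, 57.2, 70.1, 70.6, 64.9 and 77.6 CPM in splenic CD8, and 103, 96.0 and 101 CPM in CD4+CD8+. Its mean was highest in CD4+CD8+ cells, and it fell in splenic CD8 against CD4+CD8+, with a log2 fold change of -0.56 (SE 0.0794, edgeR adjusted p = 0.00599) and no overlap. The log2 fold changes of Nfkb1 in iRTE were -0.05 (SE 0.174) against Artificial CD8, 0.23 (SE 0.166) against splenic CD8 and -0.32 (SE 0.152) against CD4+CD8+, none of which passed. Without iRTE 4, the lowest iRTE library for Nfkb1, the value against splenic CD8 was 0.35 and passed. Artificial CD8 against splenic CD8 gave 0.29 (SE 0.116, edgeR adjusted p = 0.0808), which passed at 0.38 without Artificial CD8 3 and at 0.36 without splenic CD8 5.

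Nfkbia, Nfkbiz and Tnfaip3, the inhibitors best known as rapidly induced feedback genes, were high in every splenic CD8 library and in iRTE 5. In iRTE comparisons of these genes, each SE belongs to the difference of mean log2 CPM and not to the printed fold change of the fit. Nfkbia encodes IkB alpha, which binds and exports canonical dimers, and had 140.5, 130.3, 188, 78.8 and 577 CPM in iRTE 1 to 5 against 63.4, 65.7, 68.1, 70.2 and 60.2 CPM in Artificial CD8. Splenic CD8 held 374, 344, 352, 410.2 and 421 CPM of Nfkbia and CD4+CD8+ 93.8, 87.5 and 89.9 CPM. All iRTE libraries lay above Artificial CD8, iRTE 5 lay above and the other 4 lay below the splenic range, and iRTE 4 lay below the CD4+CD8+ range. The fold changes of Nfkbia were 1.77 for iRTE against Artificial CD8 (SE 0.480, edgeR adjusted p = 0.000618), 1.30 for iRTE against CD4+CD8+ (SE 0.479, edgeR adjusted p = 0.0285) and -0.77 for iRTE against splenic CD8 (SE 0.482, edgeR adjusted p = 0.0627). Without iRTE 5 these values were 1.04, 0.57 and -1.50, and all 3 passed. The call against CD4+CD8+ was lost when CD4+CD8+ 1, 2 or 3 was left out, at 1.33, 1.28 and 1.30. Artificial CD8 was lower than splenic CD8, with a log2 fold change of -2.54 (SE 0.0697, edgeR adjusted p = 7.43e-06).

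Nfkbiz encodes IkB zeta, an atypical nuclear IkB that acts as a cofactor on some NF-kB targets. It had 10.8, 11.7, 16.5, 15.8 and 133 CPM in iRTE 1 to 5, against 11.6, 10.6, 10.9, 12.6 and 11.9 CPM in Artificial CD8. Splenic CD8 held 80.5, 70.9, 71.4, 67.6 and 60.7 CPM of Nfkbiz and CD4+CD8+ 18.7, 23.9 and 22.0 CPM. Apart from iRTE 5, every iRTE library was below every CD4+CD8+ and splenic CD8 library, and iRTE 1 and 2 were within the Artificial CD8 range. The rise in iRTE against Artificial CD8, 1.71 (SE 0.669, edgeR adjusted p = 0.0151), rested on iRTE 5, without which the log2 fold change was 0.25 and did not pass. Against splenic CD8 the iRTE fold change was -0.90 (SE 0.671, edgeR adjusted p = 0.140) and, without iRTE 5, -2.35 with a call. Against CD4+CD8+ it was 0.81 (SE 0.675, edgeR adjusted p = 0.369) and, without iRTE 5, -0.65 with a call in the opposite direction. Nfkbiz was lower in Artificial CD8 than in splenic CD8, with a log2 fold change of -2.61 (SE 0.0795, edgeR adjusted p = 0.000392).

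Tnfaip3 encodes A20, a ubiquitin-editing enzyme that ends signalling upstream of the IkB kinases. It had 55.4, 61.3, 39.4, 38.1 and 425 CPM in iRTE 1 to 5, against 34.2, 25.4, 28.1, 39.5 and 36.2 CPM in Artificial CD8. Splenic CD8 held 199, 197, 184, 194 and 186 CPM of Tnfaip3 and CD4+CD8+ 33.0, 72.2 and 51.7 CPM. iRTE 3 and 4 lay within the Artificial CD8 range, iRTE 1 to 4 within the CD4+CD8+ range, and iRTE 5 stood above all libraries of the series. Tnfaip3 was higher in iRTE than in Artificial CD8 by 1.92 (SE 0.656, edgeR adjusted p = 0.00680), and this still passed without iRTE 5 at 0.57. Against splenic CD8 the iRTE fold change of -0.63 (SE 0.646, edgeR adjusted p = 0.294) passed at -1.99 without iRTE 5, and against CD4+CD8+ it was 1.25 (SE 0.724, edgeR adjusted p = 0.154) and -0.11 without iRTE 5. Artificial CD8 was lower than splenic CD8, with a log2 fold change of -2.55 (SE 0.120, edgeR adjusted p = 0.000418).

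Nfkbib and Nfkbie encode IkB beta and IkB epsilon, further cytoplasmic inhibitors, and differed less between groups. Nfkbib had 63.7, 56.5, 81.0, 51.2 and 83.8 CPM in iRTE, against 38.3, 40.4, 34.6, 37.0 and 48.1 CPM in Artificial CD8. Splenic CD8 held 46.7, 44.9, 45.4, 51.0 and 52.9 CPM of Nfkbib and CD4+CD8+ 68.2, 48.7 and 49.2 CPM. iRTE was the highest group by mean, above all Artificial CD8 libraries and overlapping splenic CD8 through iRTE 4. Nfkbib was higher in iRTE than in Artificial CD8 by 0.76 (SE 0.161, edgeR adjusted p = 0.000398) and than in splenic CD8 by 0.48 (SE 0.148, edgeR adjusted p = 0.00828). In GENCODE M21 its exons overlap Ccer2 over 14.5% and Sirt2 over 1.94% of their bases, on the opposite strand, so these reads may be shared.

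Nfkbie had 54.4, 57.6, 55.0, 38.3 and 53.1 CPM in iRTE, against 58.8, 53.8, 48.7, 46.3 and 52.2 CPM in Artificial CD8. Splenic CD8 held 63.3, 59.8, 60.3, 74.4 and 73.0 CPM of Nfkbie and CD4+CD8+ 40.6, 42.1 and 38.4 CPM. Every iRTE and Artificial CD8 library lay below every splenic CD8 library, and every Artificial CD8 library lay above CD4+CD8+. Nfkbie was lower than in splenic CD8, with a log2 fold change of -0.36 in iRTE (SE 0.126, edgeR adjusted p = 0.0132) and -0.35 in Artificial CD8 (SE 0.0899, edgeR adjusted p = 0.0142). The iRTE call was lost without splenic CD8 4 (-0.29), and the Artificial CD8 call without Artificial CD8 3 (-0.30), splenic CD8 4 (-0.28) or splenic CD8 5 (-0.29). Between iRTE and Artificial CD8 the log2 fold change of Nfkbie was -0.01 (SE 0.122), and between iRTE and CD4+CD8+ it was 0.36 (SE 0.113, edgeR adjusted p = 0.0650), passing at 0.45 without iRTE 4.

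Set against all genes tested, 8 of the 10 members rose and 0 fell in iRTE against Artificial CD8, where 38.7% of all genes were called in either direction, 20% as higher and 18.7% as lower. Nfkb1 and Nfkbie were the members that did not pass. The 10 members had a median log2 fold change of 1.30 in this comparison, and all genes tested had 0.01. For Nfkb2, Rela, Relb, Nfkbia and Nfkbib the groups did not overlap, with iRTE higher, a pattern that 11% of all genes showed. Against splenic CD8, 2 members rose (Rela and Nfkbib) and 2 fell (Rel and Nfkbie) in iRTE, where 58.2% of all genes were called, 29.2% as higher and 29% as lower, so the 4 of 10 members called were no larger a share than that of all genes. The members' median was -0.37, against -0.05 for all genes tested. Nfkbie alone had no overlap, with iRTE lower, as did 22.6% of all genes. Without iRTE 5, 7 members were called in this comparison. The shares of all genes above come from the fit with all libraries and do not apply to that count. No share of all genes is given for the fit without iRTE 5, so the count does not single out the members.

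Artificial CD8 had 7 members lower and 0 higher than splenic CD8, where 60.6% of all genes were called, 30.3% as higher and 30.2% as lower. Nfkb1, Rela and Nfkbib, with log2 fold changes of 0.29, -0.16 and -0.28, did not pass, and the members' median was -1.93, against -0.03 for all genes tested. The 7 that fell also lay wholly below splenic CD8, as 31.1% of all genes did. All 7 were called again with iRTE 5 left out of the shared fit, a setting chosen after seeing the data.

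Against the CD4+CD8+ precursors, 5 members rose (Nfkb2, Relb, Rel, Nfkbia and Rela) and 0 fell in iRTE, where 24.2% of all genes were called, 11.8% as higher and 12.3% as lower. Nfkb2, Rel and Relb had no overlap, with iRTE higher, as did 8.22% of all genes. The 5 members called became 3 without CD4+CD8+ 2 and 3 without CD4+CD8+ 3. The members' median was 1.01, against 0.02 for all genes tested. In Artificial CD8, Nfkb2 fell and was the 1 member called, where 14.7% of all genes were called, 6.54% as higher and 8.12% as lower. The groups did not overlap for Nfkbie, with Artificial CD8 higher, as for 14.2% of all genes, nor for Nfkb2, Nfkbia, Nfkbib and Nfkbiz, with Artificial CD8 lower, as for 14.8%. In this comparison 6 members were called when these groups were fitted alone and 4 with iRTE 5 left out of the shared fit. Without Artificial CD8 5, 2 were called (Nfkb2, and Nfkbib at -0.56). The shares of all genes in this paragraph come from the fit with all libraries and do not apply to counts from other fits. No share of all genes is given for those fits, so their counts do not single out the members. Nfkbiz and Tnfaip3, with log2 fold changes of -0.90 (SE 0.113) and -0.68 (SE 0.347), passed at these same values once iRTE 5 was left out.

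In splenic CD8 against CD4+CD8+, 7 members rose and 1, Nfkb1, fell, where 56.2% of all genes were called, 27.4% as higher and 28.9% as lower. Rel rose by 2.28 (SE 0.193, edgeR adjusted p = 1.68e-05), Relb by 2.26 (SE 0.132, edgeR adjusted p = 2.44e-06) and Nfkbia by 2.07 (SE 0.0649, edgeR adjusted p = 0.000536). Tnfaip3 rose by 1.88 (SE 0.328, edgeR adjusted p = 0.0168), Nfkbiz by 1.71 (SE 0.122, edgeR adjusted p = 0.0280), Nfkb2 by 1.50 (SE 0.0521, edgeR adjusted p = 1.88e-06) and Nfkbie by 0.71 (SE 0.0780, edgeR adjusted p = 0.000249). The 7 that rose lay wholly above CD4+CD8+, as 32.7% of all genes did, and Nfkb1 lay wholly below, as 30.7% did. The Nfkbiz call was lost without CD4+CD8+ 1 (1.61), 2 (1.78) or 3 (1.71), and the Tnfaip3 call without CD4+CD8+ 1 (1.63) or 3 (1.86). The comparisons share groups with each other, so their values are not independent.

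**Figure D2:**
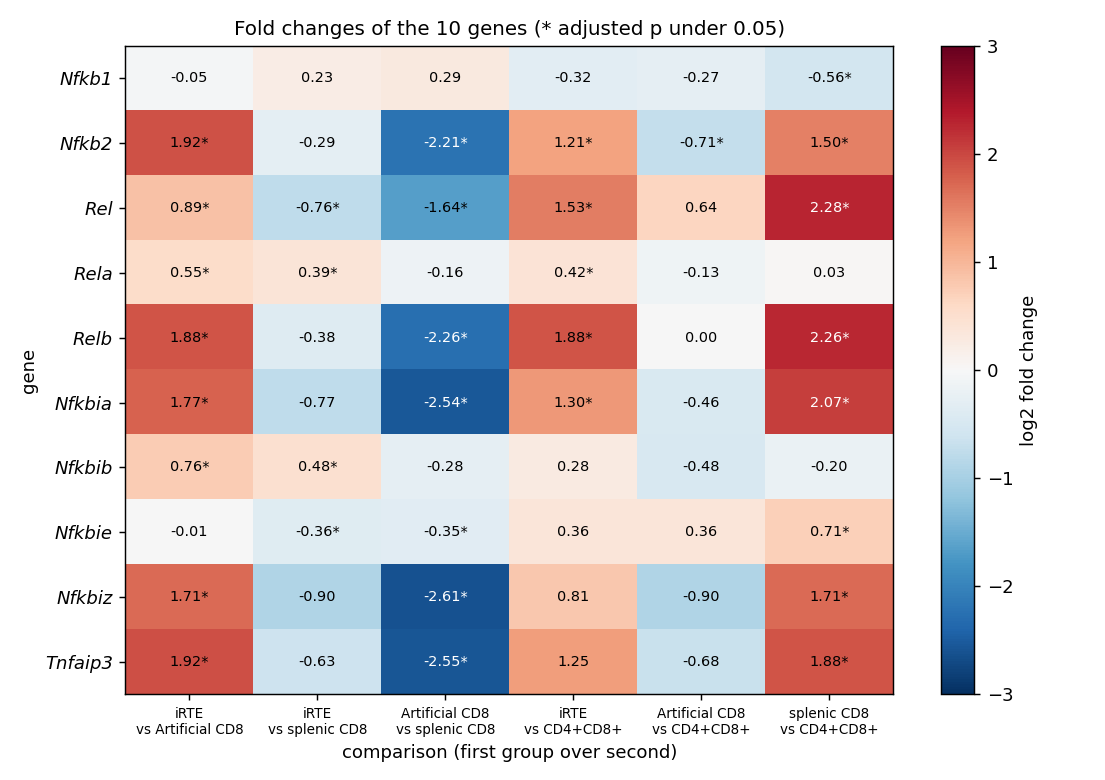
Log2 fold changes of the 10 genes in the 6 comparisons, the first group over the second, with asterisks for an adjusted p under 0.05 in edgeR. Red cells of Nfkb2 and Relb for iRTE against Artificial CD8 (1.92 and 1.88) and blue cells for Artificial CD8 against splenic CD8 (-2.21 and -2.26) bracket pale cells for iRTE against splenic CD8 (-0.29 and -0.38).

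The iRTE libraries differed among themselves. iRTE 4 was the lowest iRTE library for 7 of the 10 members (Nfkb1, Nfkb2, Relb, Nfkbia, Nfkbib, Nfkbie and Tnfaip3). iRTE 5 was the highest for 4 members (Nfkbia, Nfkbib, Nfkbiz and Tnfaip3), and iRTE 3 was the highest for Nfkb1, Nfkb2, Rela and Relb. Set beside the 5 splenic CD8 libraries, iRTE 4 lay below all of them for 8 members and above all for 1, while iRTE 5 lay below all for 4 and above all for 5. iRTE 1 and iRTE 2 each lay below all splenic libraries for 6 members and above all for 3, and iRTE 3 below for 5 and above for 4. On the log2 scale, iRTE 5 lay above the splenic mean by 1.15 for Tnfaip3, 0.92 for Nfkbiz and 0.61 for Nfkbia, while iRTE 4 lay at -2.33, -2.14 and -2.26 for these genes. The summed immediate early genes, which are induced within minutes of many stimuli, reached 4085 CPM in iRTE 5 and 1331 to 1486 CPM in the other 4 iRTE libraries, against 739 to 821 CPM in Artificial CD8, 1122 to 1271 CPM in splenic CD8 and 1065 to 1143 CPM in CD4+CD8+. The sum leans on abundant genes such as Jund, with a median of 455 CPM in iRTE and 81.5 CPM in splenic CD8, whereas Egr1 had a median of 18.7 CPM in iRTE and 55.8 CPM in splenic CD8, and Btg2 one of 114 CPM in iRTE and 292 CPM in splenic CD8. Of 14 tested immediate early genes, 9 rose and 0 fell in iRTE against Artificial CD8, where 20% of all genes were called higher and 18.7% lower. Without iRTE 5, a list count added after seeing the data, 6 rose and 3 fell. Those shares of all genes come from the fit with all libraries and do not apply to that second count. The part of this early-gene level in the iRTE 5 values of Nfkbia, Nfkbiz and Tnfaip3 was not tested.

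**Figure D3:**
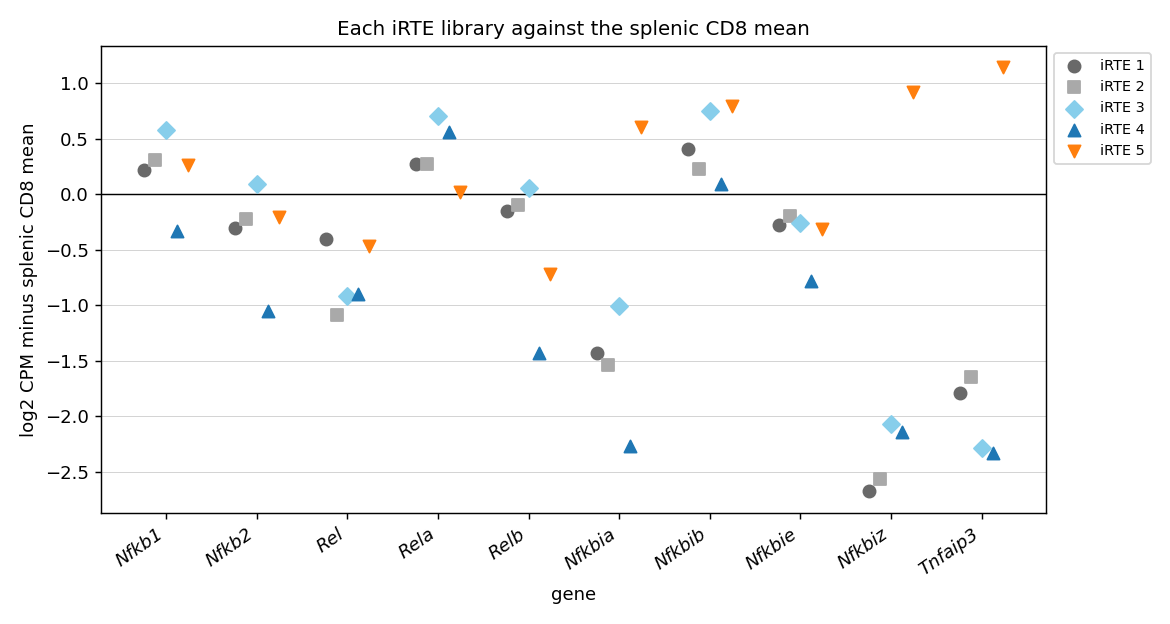
Log2 CPM of each iRTE library minus the mean log2 CPM of the 5 splenic CD8 libraries (the line at 0), for the 10 genes. iRTE 5 is the highest point for Nfkbia, Nfkbiz and Tnfaip3 (0.61, 0.92 and 1.15), and iRTE 4 the lowest for Nfkb2, Relb, Nfkbia and Nfkbie.

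Kinases and receptors upstream of NF-kB were described from listed genes, whose counts are to be read against the share of all genes called in either direction. That share was 38.7% in iRTE against Artificial CD8, 58.2% in iRTE against splenic CD8, 60.6% in Artificial CD8 against splenic CD8 and 24.2% in iRTE against CD4+CD8+. Of the 10 IkB kinases and upstream kinases, 3 rose and 0 fell in iRTE against Artificial CD8 (median log2 fold change 0.11), and 1 rose and 6 fell in iRTE against splenic CD8 (median -0.53). In Artificial CD8 against splenic CD8, 0 rose and 7 fell (median -0.67), and in iRTE against CD4+CD8+ 0 of 10 were called. In either direction, the 7 of 10 called in each comparison with splenic CD8 lay near the share of all genes. As lower alone, 6 and 7 were called, where 29% of all genes were lower in iRTE and 30.2% in Artificial CD8. Map3k14, the gene of NIK, had 6.52, 3.64, 3.01, 5.98 and 15.7 CPM in iRTE, against 94.9, 78.3, 93.6, 95.4 and 94.6 CPM in splenic CD8. Its Artificial CD8 libraries held 5.94, 5.67, 4.62, 3.35 and 3.45 CPM and its CD4+CD8+ libraries 4.41, 5.44 and 4.62 CPM, so that splenic CD8 stood alone as the high group. The log2 fold change of Map3k14 against splenic CD8 was -3.70 in iRTE (SE 0.409, edgeR adjusted p = 4.02e-08) and -4.31 in Artificial CD8 (SE 0.177, edgeR adjusted p = 4.14e-09). Between iRTE and Artificial CD8 the log2 fold change of Map3k14, 0.62 (SE 0.439, edgeR adjusted p = 0.138), did not pass. The part of Map3k14 in the Nfkb2 and Relb levels was not tested. Ikbke, a non-canonical IkB kinase relative, was lower against splenic CD8, with a log2 fold change of -1.42 in iRTE (SE 0.0523, edgeR adjusted p = 2.34e-10) and -2.20 in Artificial CD8 (SE 0.0729, edgeR adjusted p = 6.16e-13).

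Of 15 tested TNF receptor family members and adaptors, 9 rose and 0 fell in iRTE against Artificial CD8 (median 0.52), 4 rose and 6 fell in iRTE against splenic CD8 (median -0.19), and 0 rose and 12 fell in Artificial CD8 against splenic CD8 (median -0.86). All genes were called in 38.7%, 58.2% and 60.6% of tests in these comparisons, so the 10 of 15 called in iRTE against splenic CD8 lay near the background. Tnfrsf18, the receptor GITR, had 152, 243, 361, 75.1 and 101 CPM in iRTE, against 12.4, 13.0, 15.9, 15.6 and 19.3 CPM in Artificial CD8, and it was higher by 3.61 (SE 0.426, edgeR adjusted p = 1.01e-07). Splenic CD8 libraries held 55.7 to 64.0 CPM of Tnfrsf18, below every iRTE library. Sharpin, a subunit of the linear ubiquitin ligase that serves TNF receptors, was higher in iRTE than in Artificial CD8 by 1.27 (SE 0.0983, edgeR adjusted p = 8.53e-08) and lower in Artificial CD8 than in splenic CD8, with a log2 fold change of -1.86 (SE 0.0751, edgeR adjusted p = 1.36e-10). Birc2 and Traf3, which keep NIK low in resting cells, were lower in iRTE than in splenic CD8, with log2 fold changes of -1.42 (SE 0.161, edgeR adjusted p = 4.30e-08) and -1.58 (SE 0.144, edgeR adjusted p = 2.41e-07). Artificial CD8 was lower as well, at -1.46 (SE 0.0455, edgeR adjusted p = 1.59e-08) and -1.72 (SE 0.142, edgeR adjusted p = 4.66e-08). Between iRTE and Artificial CD8 neither gene passed, at 0.04 (SE 0.165) and 0.14 (SE 0.177). CD4+CD8+ libraries held at most 66.2 CPM of Birc2 and 33.3 CPM of Traf3, and splenic CD8 libraries at least 146.6 and 75.9 CPM. The part of Birc2 and Traf3 in the Nfkb2 and Relb levels was not tested. Of the 8 genes that relay the T-cell receptor signal to NF-kB, 4 rose and 1 fell in iRTE against Artificial CD8, where 38.7% of all genes were called, with Bcl10 higher by 0.65 (SE 0.0978, edgeR adjusted p = 3.42e-05). Against splenic CD8, 1 rose and 3 fell in iRTE, no larger a share than the 58.2% of all genes called.

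Among 18 genes commonly listed as NF-kB targets, 13 rose and 2 fell in iRTE against Artificial CD8 (median 1.08), and 5 rose and 10 fell in iRTE against splenic CD8 (median -0.47). Artificial CD8 against splenic CD8 had 4 higher and 13 lower (median -1.57), and iRTE against CD4+CD8+ had 7 higher and 2 lower (median 0.60). Of all genes, 38.7%, 58.2%, 60.6% and 24.2% were called in these 4 comparisons, in the order given. Without iRTE 5, also counted after seeing the data, the targets were 12 higher and 3 lower in iRTE against Artificial CD8. Against splenic CD8 they were then 4 higher and 11 lower. The shares of all genes above come from the fit with all libraries and do not apply to these counts. No share of all genes is given for the fit without iRTE 5, so these counts do not single out the targets. Icam1, an adhesion molecule, had 124, 119, 94.5, 55.5 and 167 CPM in iRTE, against 38.5, 35.1, 39.6, 37.0 and 40.0 CPM in Artificial CD8, a log2 fold change of 1.56 (SE 0.267, edgeR adjusted p = 3.10e-06). Il7r, the interleukin 7 receptor chain, was higher in iRTE than in Artificial CD8 by 1.07 (SE 0.274, edgeR adjusted p = 0.000147), and Ccr7, the lymph node homing receptor, by 0.80 (SE 0.157, edgeR adjusted p = 0.000127). Traf1 was higher by 1.33 (SE 0.408, edgeR adjusted p = 0.00114) and Birc3, an inhibitor of apoptosis, by 0.90 (SE 0.139, edgeR adjusted p = 1.57e-05), and all 4 of these genes were lower in iRTE than in splenic CD8. Bcl2l1, the gene of Bcl-xL, went the other way, at -1.25 in iRTE against Artificial CD8 (SE 0.149, edgeR adjusted p = 4.20e-07) and 1.14 in iRTE against splenic CD8 (SE 0.148, edgeR adjusted p = 6.43e-07). Il2ra also fell in iRTE against Artificial CD8, with a log2 fold change of -2.50 (SE 0.602, edgeR adjusted p = 3.32e-05). Against splenic CD8, Il2ra was higher in iRTE by 4.53 (SE 0.603, edgeR adjusted p = 7.61e-08), 1 of the 5 targets that rose there.

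**Figure D4:**
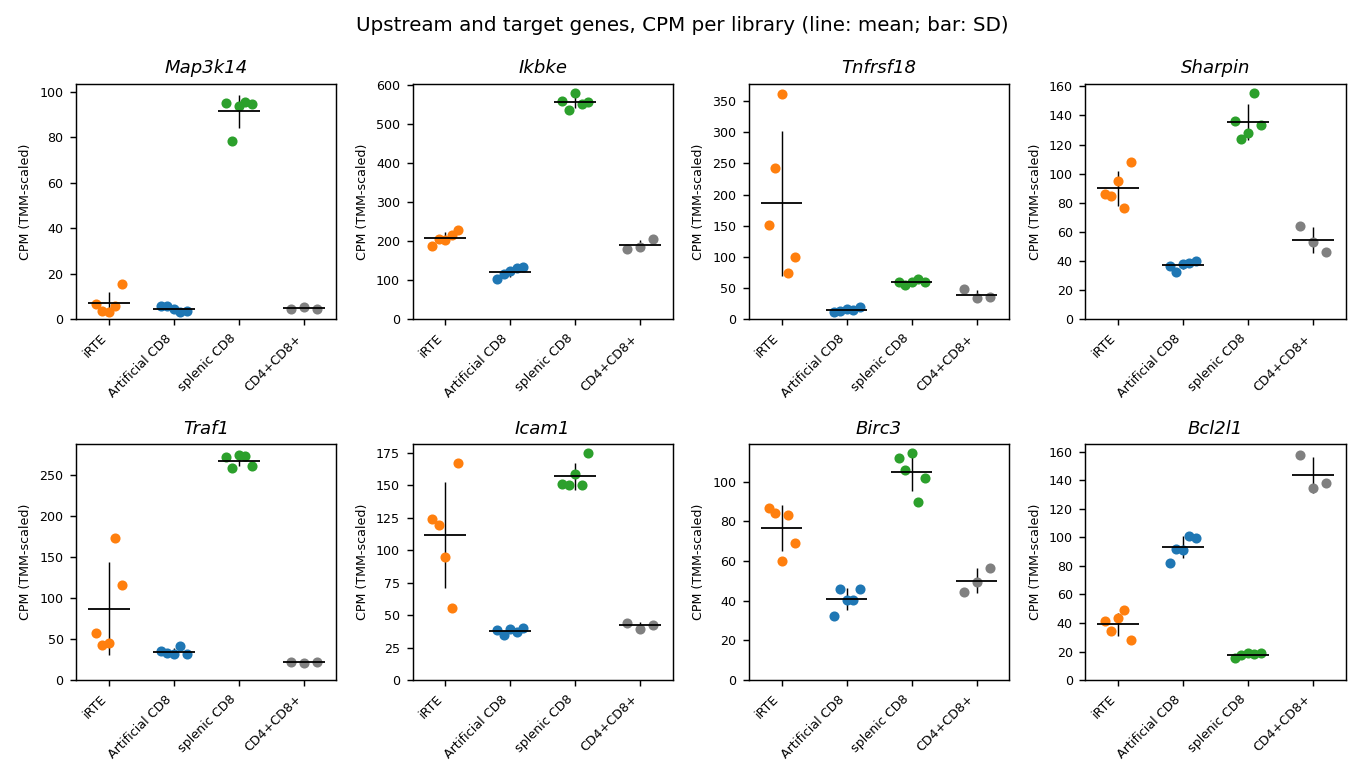
TMM-scaled CPM (linear axes from 0) of 4 upstream genes and 4 target genes in each library, with the group mean (line) and SD (bar). Map3k14 was high in splenic CD8 only (78.3 to 95.4 CPM), Tnfrsf18 was highest in iRTE, and Bcl2l1 was lowest in splenic CD8.

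Among 14 other restraints of NF-kB, 6 were higher and 2 lower in iRTE against Artificial CD8 (median 0.29) and 3 higher and 5 lower in iRTE against splenic CD8 (median -0.29), where 38.7% and 58.2% of all genes were called. The 8 of 14 called against splenic CD8 lay near the background. Bcl3, an atypical IkB, had 58.9, 51.9, 63.5, 16.5 and 81.6 CPM in iRTE, against 17.8, 19.9, 18.8, 28.3 and 22.6 CPM in Artificial CD8, with iRTE 4 below all Artificial CD8 libraries. Its log2 fold change was 1.34 (SE 0.417, edgeR adjusted p = 0.000644). Nfkbid, a further nuclear IkB, had 8.43, 8.70, 15.7, 7.29 and 64.3 CPM in iRTE, against 85.4, 89.9, 97.7, 88.9 and 87.6 CPM in splenic CD8, the same high iRTE 5 library as for Nfkbiz, and was lower, with a log2 fold change of -2.10 (SE 0.578, edgeR adjusted p = 0.000645). Tnip1, a partner of A20, was higher in iRTE than in Artificial CD8 by 0.73 (SE 0.0825, edgeR adjusted p = 8.70e-06) and lower than in splenic CD8, with a log2 fold change of -0.94 (SE 0.0885, edgeR adjusted p = 2.00e-07).

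Across the 18 libraries the members formed sets of like pattern, given here as descriptions, since libraries of 1 group share their source. Pearson's r of log2 CPM was 0.95 between Nfkb2 and Relb, 0.96 between Nfkbiz and Tnfaip3, 0.94 between Nfkbia and Tnfaip3 and 0.91 between Nfkbia and Nfkbiz. Nfkbia was also close to Nfkb2, at 0.88, whereas Nfkb1 had negative values with Nfkb2 (-0.32) and Rel (-0.64). Outside the family, the genes most like Nfkb2 were Xaf1 (0.979) and Tapbpl (0.978), those most like Relb were Gimap7 (0.976) and Xaf1 (0.974), and those most like Nfkbia were Irf1 (0.981) and Cecr5 (0.974). Nfkbiz was most like Zc3h12a (0.969) and Phkg2 (0.959), and Tnfaip3 most like Hdac10 (0.945) and Rps6kb2 (0.943). Rel was most like Cdc37l1 (0.931) and Kat2b (0.929), Rela most like Pddc1 (0.904) and Psen2 (0.901), Nfkbib most like Fermt3 (0.931) and Ppdpf (0.926), Nfkbie most like Pcgf5 (0.898) and Id2 (0.882), and Nfkb1 most like Psmc5 (0.879) and Ctnnbl1 (0.878).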

How the data were processed

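Bulk RNA-seq of 18 mouse T-cell libraries was analysed from the authors' deposited raw counts per gene, whole numbers with no normalization. Per the submitters' processing notes, STAR 2.4.2, the mm9 build, Subread and edgeR were used; duplicates were marked, per the file headers, while the gene annotation and whether counting used strand were not given in the sources used here. The authors also deposited a log2 table of 17765 genes, used only as a check: it equals TMM log2 CPM with a prior count of 2 to within 5.33e-14, and the 10 members differed from the values here by at most 0.0256.

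Genes passing edgeR's filterByExpr (13922 of 43280) were scaled by TMM and fitted with edgeR 4.0.16 (R 4.3.3), quasi-likelihood with robust dispersions, 1 coefficient per group over all 18 libraries. P-values of the F test were adjusted by Benjamini-Hochberg over all genes tested, with a threshold of 0.05. Fold changes are log2. Each SE comes from the within-group variances of log2 CPM (prior count 2), not from the fit. It is the SE of a difference of mean log2 CPM, which can differ from the printed fold change of the fit. This matters most for Nfkbia, Nfkbiz and Tnfaip3 in iRTE, where iRTE 5 stands apart, and there the SE does not bound the fold change. Limma 3.58.1 (voom) and DESeq2 1.42.0 were alternatives, as were another scaling, other count filters, a replicate block, fits of only the groups compared, leaving out each library, and iRTE 1 to 3 or iRTE 4 and 5 alone. The procedure was tested on simulated data; the recovery target set at first was narrowly missed in splenic CD8 against CD4+CD8+ and was then replaced, so no recovery rate is claimed. A count of 3, the floor, equals 0.152 to 0.287 CPM, and floors cover counting error only. Replicate libraries differed by at least 4.40 times the chi-square expected from sampling, so none was merged. The members and gene lists were chosen with earlier results of these data known. A rule selected from each list up to 2 called genes with the smallest adjusted p in each direction, and the text names only some of them. Il7r, Ccr7, Bcl3, Nfkbid, Birc3, Traf1 and Bcl2l1 are named besides. A gene that this rule names is not reported here. For each member the 2 genes of highest Pearson r over libraries are named. Exon lengths come from GENCODE M21 and promoters from RefSeq, both on GRCm38, whose coordinates differ from mm9.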

Additional observations from a re-analysis of the deposited data

Results flagged for a closer look

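In the iRTE group, Nfkbia reached 577 CPM in iRTE 5, and the next highest iRTE library held 188 CPM. Nfkbiz reached 133 CPM in iRTE 5, with 16.5 CPM in the next library. Tnfaip3 reached 425 CPM in iRTE 5, with 61.3 CPM in the next. In the opposite direction, Nfkbie was at 38.3 CPM in iRTE 4, and the next lowest iRTE library held 53.1 CPM. In each case the gap of the extreme library to its nearest neighbour exceeded Dixon's 95% critical value of 0.710 for 5 libraries, as a share of the range of the group. Of 30 sets of 5 libraries examined for the 10 genes, these 4 stood out in this way, and chance gives about 1 in 20. All 4 lay in iRTE, and 3 of them in the same library. The sets are not independent, since they share libraries and Nfkbia, Nfkbiz and Tnfaip3 had r of 0.91 to 0.96 with each other.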

How the results depend on the processing

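Under the alternatives, 90 counts of called members stayed within 1.5 times the count first given and 15 did not. The share of all genes called under each alternative was not set beside these counts, so they do not single out the members. In iRTE against splenic CD8 (4 called) the count was 9 with limma-voom, 7 with the replicate block and 7 with iRTE 1 to 3 only. In iRTE against CD4+CD8+ (5 called) it was 3 with no filter on low counts, with the replicate block and with only these groups fitted. In Artificial CD8 against CD4+CD8+ (1 called) it was 2 with a filter of 10 CPM, with DESeq2 and with the replicate block, 6 with only these groups fitted, and 4 with iRTE 5 left out of the shared fit, an alternative chosen after seeing the data. Leaving out 1 library at a time gave 7 to 8 members in iRTE against Artificial CD8, 3 to 7 in iRTE against splenic CD8, 6 to 7 in Artificial CD8 against splenic CD8, 3 to 6 in iRTE against CD4+CD8+, 1 to 2 in Artificial CD8 against CD4+CD8+ and 6 to 8 in splenic CD8 against CD4+CD8+.

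Signs reversed as follows, and the cause was not tested. Relb in Artificial CD8 against CD4+CD8+ was 0.016 with RLE scaling, 0.018 with no filter, 0.035 with the 10 CPM filter, 0.016 with DESeq2 and 0.12 with the replicate block. Nfkbiz in iRTE against CD4+CD8+ was -0.10 with the replicate block and -0.72 with iRTE 1 to 3 only, and Tnfaip3 there was -0.0064 with iRTE 1 to 3 only. With iRTE 1 to 3 only, Nfkb1 and Nfkbie against Artificial CD8 were 0.088 and 0.10. With iRTE 4 and 5 only, Nfkb1, Nfkbiz and Tnfaip3 against splenic CD8 were -0.0013, 0.082 and 0.27. Leaving out 1 library at a time gave -0.16 to 0.059 for Nfkb1 in iRTE against Artificial CD8, -0.051 to 0.083 for Nfkbie in iRTE against Artificial CD8, -0.65 to 1.04 for Nfkbiz in iRTE against CD4+CD8+, -0.11 to 1.55 for Tnfaip3 in iRTE against CD4+CD8+, -0.25 to 0.070 for Rela in Artificial CD8 against CD4+CD8+, -0.11 to 0.13 for Relb in Artificial CD8 against CD4+CD8+ and -0.10 to 0.23 for Rela in splenic CD8 against CD4+CD8+.

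Replicate numbers did not pair the libraries: over 24 same-numbered pairs the correlation of deviations was -0.0663 to 0.0587. DESeq2 gave no adjusted p for Nfkbiz and Tnfaip3, which stay out of its counts. Depth limits Rel most, with a mean of 60 counts per CD4+CD8+ library.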
